A study of Mus musculus with 6 samples.

Results

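Mitochondrial fatty acid oxidation and ketone genes were compared between mouse acute myeloid leukemia cells with and without PPARA, the nuclear receptor that controls much of this pathway in the liver. The gene set was a list of 41 enzymes and their regulators, chosen by name, and a gene counted as measured when a probe set was paired with it and with no other gene. By that rule 38 of the 41 were measured, out of 30743 named genes tested on the arrays. Acsl1 had no probe set paired with it, and the probe sets of Acsl3 and Etfb were shared with another gene, so these 3 are not analysed here. Mut, the methylmalonyl-CoA mutase, was measured under its current symbol Mmut. Where a gene had several probe sets, the 1 with the highest mean over the 6 arrays was used.

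The 6 arrays held leukemia made by infecting marrow cells with a retrovirus that carries the MLL-AF9 fusion oncogene and green fluorescent protein (GFP) from the same transcript. The control group (3 arrays) came from Ppara+/+ cells and the other group (3 arrays) from Ppara-/- cells, both of mice bought from a commercial breeder and backcrossed for 10 generations, and both carried MLL-AF9. Mononuclear marrow cells of secondary recipients, mice given leukemia from an earlier set of recipients, were sorted for GFP and their RNA extracted. The recipients' genotype and age were not given in the sources used here, and nothing in the labels tells if replicates were separate mice or separate leukemias, so the p-values measure only the spread between these samples.

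Fatty acids enter mitochondria after acyl-CoA synthetases activate them and the carnitine shuttle carries them across the membranes. Inside, each turn of the beta-oxidation spiral runs through dehydrogenation, hydration, a further dehydrogenation and thiolysis, and the electrons of the initial step pass through the electron transfer flavoprotein to the respiratory chain. In fasting liver, PPARA bound together with RXR switches on many of these genes and feeds ketone body synthesis, whereas tissues outside the liver mainly burn ketone bodies.

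Signals are given on the log2 scale as deposited, where a difference of 1 is a 2-fold change. Levels of different genes on an array are not comparable, so means and sums over marker lists were compared only between arrays. Each gene's values were set against each other, and its level against the negative-control probe sets, which match no transcript. Their median lay between 4.63 and 5.16 and their 95th percentile between 7.91 and 8.23. Of 13 measured markers of myeloid leukemia, 10 lay above that percentile on every array, while the 6 measured T-cell markers and the 6 NK-cell markers all had means at or under the highest control median, as did 6 of 9 markers of marrow adipocytes. Of 10 neutrophil markers 7 had higher and 3 lower means in Ppara-/-, with 0 past the threshold. Of 13 monocyte and macrophage markers 11 had lower means, beside 12851 of all 30743 genes, and Ccr2 and Mrc1 had higher means. Of the 11, 2 were past the threshold (Clec4a1 and Vcam1). The lists were chosen with earlier results of these data known, so these counts are no independent support. The mean log2 signal of the 13 was 7.92 to 8.05 in Ppara+/+ against 7.30 to 7.46 in Ppara-/-. The log2 of their summed signal, which the brightest probe sets dominate, was 13.93 to 14.11 against 13.62 to 13.88. Of 6 erythroid markers 1 passed the threshold, Car2 (a carbonic anhydrase, difference -2.91, limma adjusted p = 0.0055), while the other 5 differed by -0.080 to 0.18. The part of these cells in the values below was not tested, and in bulk RNA fewer cells of a type cannot be told apart from less RNA per cell. The probe set of Ppara read 4.87, 5.19 and 5.18 in Ppara+/+ and 5.29, 5.05 and 5.23 in Ppara-/-, all close to the control median, and where its probes lie relative to the disrupted part is unknown, so it does not check the genotype labels.

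None of the 38 genes passed the test of a difference between the genotypes. With limma and Benjamini-Hochberg adjustment over all genes, 0 of 38 passed an adjusted p of 0.05, against 0.117% of all genes tested, and the smallest adjusted p was 0.918, for Mmut. At an unadjusted p under 0.05 the count was again 0 of 38, against 5.74% of all genes and 8.67% of the 16226 genes whose mean was above the control median. This count of 0 was not stable: it was 2 without Ppara+/+ replicate 2 (Cpt2 and Mmut), 1 without Ppara+/+ replicate 1 (Pcca), 1 without Ppara+/+ replicate 3 and 1 without Ppara-/- replicate 2 (Mmut in both), and up to 3 in the other alternatives (Acad11, Acad9 and Pcca with the control median as a covariate). The adjusted count remained 0 in each of them. The groups of 3 arrays did not overlap for 2 of the 38 genes, Cpt1b and Acad10, against 8.74% of all genes and 10.1% of those above the control median. Differences, always Ppara-/- minus Ppara+/+, ran from -0.47 (Mmut) to 0.30 (Acad11), with 16 positive, 22 negative and a median of -0.028. Over all genes 17538 differences were positive and 12851 negative, with a median of 0.020. In 32 of the 38 genes the difference was under 0.2 in size, as in 82.4% of all genes, and in 31 it was smaller than the gene's own standard deviation within a genotype, as in 73.9% of all genes.

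The intervals bound how large a difference in array signal could have been missed. For the 31 of 38 genes that passed the 95th percentile of the negative controls on 0 arrays, they may not bound the RNA. The standard errors (SE) of the 38 differences were 0.094 to 0.22, and the 95% confidence interval stayed within a 2-fold change for all 38 genes, as it did for 97.5% of all genes. It stayed within 0.5 on the log2 scale for 26 of them. The lowest bound was -0.98, for Mmut, and the highest 0.66, for Acad11. The intervals hold for single genes and are not widened for the number of genes read. When arrays were centred on their median, the intervals of 36 of the 38 stayed within 2-fold, with a lowest bound of -1.19. Those of 37 stayed within it with cyclic loess. The same count held without Ppara+/+ replicate 2 or 3, or without Ppara-/- replicate 1 or 2, each left out singly.

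**Figure D1:**
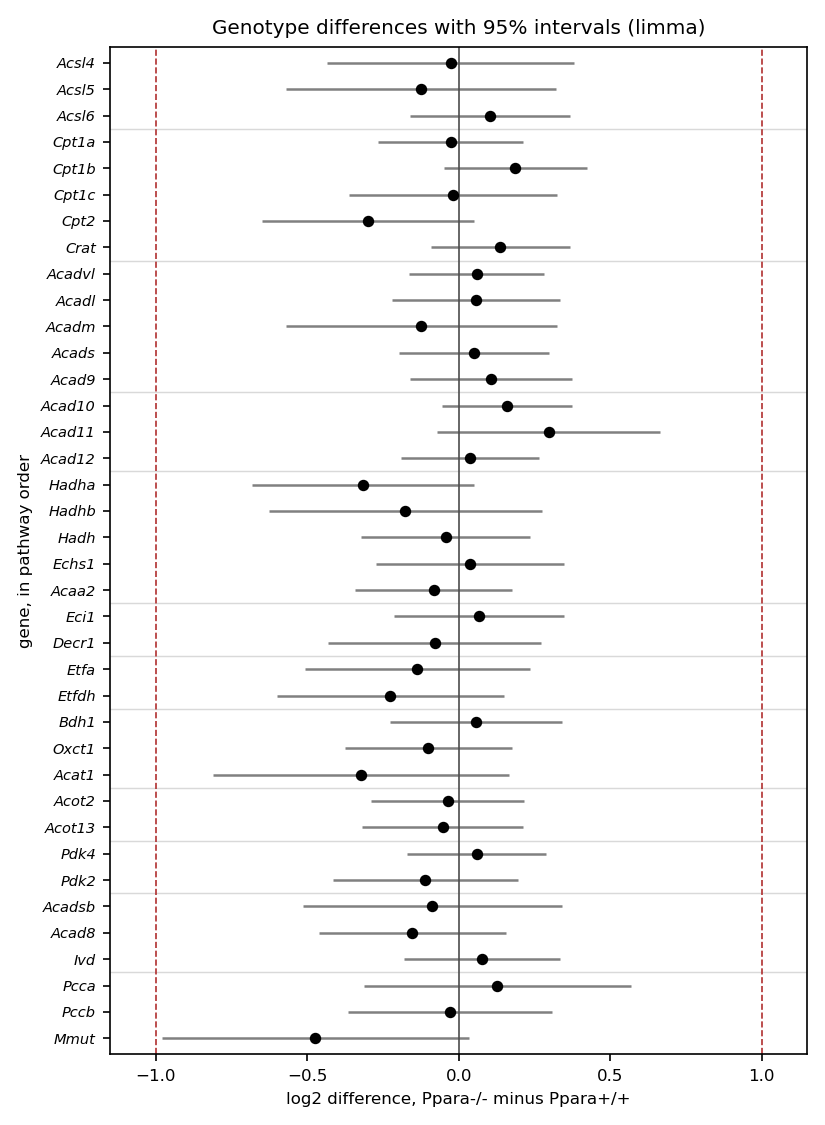
Difference in log2 signal (Ppara-/- minus Ppara+/+) of the 38 measured genes, grouped by step of the pathway, with points for the estimate and bars for the 95% confidence interval from limma (3 arrays a group). Every interval includes 0, and none reaches a log2 difference of 1 in either direction.

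The synthetases attach coenzyme A to free fatty acids. Acsl5, a mitochondrial and endoplasmic reticulum isoform, was above the 95th percentile of the controls on every array, with signals of 8.93, 8.44 and 8.37 in Ppara+/+ and 8.44, 8.78 and 8.15 in Ppara-/-. The highest value was a Ppara+/+ array and the lowest a Ppara-/- array, with the other 4 mixed. A second Acsl5 probe set, not used because it was dimmer, lay near the control medians. It read 4.61, 4.79 and 4.75 in Ppara+/+ against 4.67, 5.05 and 4.60 in Ppara-/-. Acsl4, which prefers arachidonic acid, gave 6.91, 6.24 and 6.45 against 6.37, 6.72 and 6.43. Acsl6 stayed at the control median, between 4.81 and 5.15, so its values carry little signal. The median difference of these 3 genes was -0.027.

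The carnitine shuttle holds the step that limits entry of long-chain fatty acids, carnitine palmitoyltransferase 1. Its liver isoform Cpt1a, a textbook PPARA target, read 9.39, 9.42 and 9.46 in Ppara+/+ and 9.48, 9.46 and 9.25 in Ppara-/-. These 6 values overlap, and the difference was -0.027 (SE 0.10, n = 3 and 3 arrays; limma adjusted p = 0.997). The 95% interval of the Ppara-/- to Ppara+/+ ratio was 0.832 to 1.16. The promoter of Cpt1a is shown because it holds the half-site of nuclear receptors, AGGTCA, that PPARA and its relatives bind in pairs. The 250 bases before its start (RefSeq, GRCm38.p6, chr19:3323051-3323300, plus strand) read 5′ to 3′ as follows, with the half-site, here on the opposite strand as TGACCT, in capitals.
Cpt1a: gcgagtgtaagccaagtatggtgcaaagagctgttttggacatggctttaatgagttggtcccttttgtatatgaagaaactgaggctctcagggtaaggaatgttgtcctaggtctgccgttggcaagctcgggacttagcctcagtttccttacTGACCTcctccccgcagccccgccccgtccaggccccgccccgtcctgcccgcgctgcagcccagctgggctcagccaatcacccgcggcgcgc

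Cpt1b, the muscle isoform, read 6.29, 6.43 and 6.49 in Ppara+/+ and 6.63, 6.50 and 6.64 in Ppara-/-. All 3 Ppara-/- values lay above all 3 Ppara+/+ values, with 6.49 and 6.50 the closest pair, and the difference of 0.19 (SE 0.10) had an unadjusted limma p of 0.108 and an adjusted p of 0.997. Cpt1c, the brain isoform, ran from 4.93 to 5.43. Cpt2, the inner-membrane enzyme that returns the acyl group to coenzyme A, gave 7.55, 7.06 and 7.14 against 7.04, 7.06 and 6.75. Its difference of -0.30 (SE 0.15, limma adjusted p = 0.975) came with 1 high Ppara+/+ and 1 low Ppara-/- array, and the other 4 values lay between 7.04 and 7.14. Crat, which exchanges short acyl groups with carnitine, read 8.10, 8.01 and 8.14 against 8.22, 8.31 and 8.13, a difference of 0.14 (SE 0.10, limma adjusted p = 0.997). The 5 shuttle genes thus had differences in both directions, with a median of -0.020.

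The straight-chain acyl-CoA dehydrogenases open each turn of the spiral and divide the work by chain length. Acadvl, for very long chains, was nearly flat, with 7.02, 7.01 and 7.06 in Ppara+/+ and 7.12, 6.99 and 7.16 in Ppara-/-. Its difference was 0.060 (SE 0.098), and the 95% interval of the ratio was 0.893 to 1.22. Acadl, for long chains, ran from 8.10 to 8.43 in Ppara+/+ and from 8.21 to 8.39 in Ppara-/-. Acads, for short chains, ran from 7.41 to 7.58 and from 7.44 to 7.69, and Acad9, which also helps to assemble complex I, from 6.50 to 6.82 and from 6.68 to 6.87. In each of these genes the ranges of the genotypes overlap.

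Acadm, the medium-chain enzyme and another classical PPARA target, varied more, with 8.04, 7.34 and 7.43 in Ppara+/+ and 7.56, 7.23 and 7.65 in Ppara-/-. The highest value and the next-to-lowest both came from Ppara+/+ arrays, and the difference of -0.12 (SE 0.20, limma adjusted p = 0.997) turned to 0.095 without Ppara+/+ replicate 1. Its upstream window (RefSeq, GRCm38.p6, chr3:153944644-153944893, minus strand, 5′ to 3′) is shown beside that of Cpt1a because it too holds 1 half-site, again as TGACCT and in capitals.
Acadm: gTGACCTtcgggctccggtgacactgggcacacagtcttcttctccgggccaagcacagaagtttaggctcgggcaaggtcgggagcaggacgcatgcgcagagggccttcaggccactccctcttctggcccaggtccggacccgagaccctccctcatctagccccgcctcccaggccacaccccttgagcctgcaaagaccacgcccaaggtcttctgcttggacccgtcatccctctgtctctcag

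Acad10, Acad11 and Acad12 belong to the same enzyme family, and all 3 had a positive difference, with a median of 0.16. Acad10 read 5.93, 6.01 and 5.93 in Ppara+/+ and 6.16, 6.11 and 6.08 in Ppara-/-, so the groups did not overlap. Its difference was 0.16 (SE 0.094), with an unadjusted limma p of 0.124 and an adjusted p of 0.997. Acad11 read 6.42, 6.13 and 6.54 against 6.55, 6.96 and 6.47. Its difference of 0.30 (SE 0.16, limma adjusted p = 0.997) was 0.15 without Ppara-/- replicate 2, the highest array. Acad12 stayed between 5.53 and 5.70 on all 6 arrays.

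The middle and last steps of the spiral are carried by the trifunctional protein, whose alpha subunit is Hadha and whose beta subunit is Hadhb, and by the matrix enzymes Echs1, Hadh and Acaa2. Hadha read 9.09, 8.63 and 8.58 in Ppara+/+ and 8.49, 8.61 and 8.25 in Ppara-/-. Only 1 Ppara-/- array reached into the Ppara+/+ range, and the difference of -0.32 (SE 0.16) had an unadjusted limma p of 0.082 and an adjusted p of 0.965. Hadhb read 7.54, 6.72 and 6.99 against 6.80, 7.08 and 6.84. Its groups overlap widely, and the difference of -0.18 (SE 0.20, limma adjusted p = 0.997) turned to 0.052 without Ppara+/+ replicate 1, whereas that of Hadha went to -0.16 without the same array.

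Hadha and Hadhb are divergent neighbours that start in opposite directions from the same stretch of DNA. Their upstream windows of 250 bases share 228 bases, so a single sequence serves both, and it is shown because the encoded subunits form 1 protein. It holds no AGGTCA on either strand (RefSeq, GRCm38.p6, chr5:30154981-30155230, minus strand, 5′ to 3′ toward Hadha, with nothing in capitals).
Hadha: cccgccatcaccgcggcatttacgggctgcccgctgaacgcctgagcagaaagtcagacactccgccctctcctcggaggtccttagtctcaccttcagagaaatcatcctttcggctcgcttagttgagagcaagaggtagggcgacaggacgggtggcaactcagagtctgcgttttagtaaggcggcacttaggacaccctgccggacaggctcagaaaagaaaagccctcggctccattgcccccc

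Among the matrix enzymes, Acaa2, the thiolase that closes the spiral, read 8.13, 7.96 and 7.93 in Ppara+/+ and 7.96, 8.04 and 7.77 in Ppara-/-, a difference of -0.083 (SE 0.11, limma adjusted p = 0.997). Echs1, the short-chain enoyl-CoA hydratase, ran from 7.51 to 7.95 and from 7.60 to 7.82. Hadh, the short-chain hydroxyacyl-CoA dehydrogenase, ran from 7.51 to 7.84 and from 7.48 to 7.69. In all 5 genes of these steps Ppara+/+ replicate 1 was the highest of the 6 arrays. Eci1 and Decr1, which prepare unsaturated fatty acids for the spiral, ran from 7.19 to 7.37 against 7.11 to 7.46 and from 6.23 to 6.72 against 6.14 to 6.44.

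Electrons from the acyl-CoA dehydrogenases pass to the flavoprotein subunit Etfa and on to ubiquinone through Etfdh. Etfa read 7.83, 7.39 and 7.22 in Ppara+/+ and 7.40, 7.44 and 7.19 in Ppara-/-. Etfdh read 7.52, 6.91 and 7.06 against 6.80, 7.08 and 6.93. In both genes Ppara+/+ replicate 1 stood above the other 5 arrays, and the difference of Etfdh, -0.23 (SE 0.16, limma adjusted p = 0.997), was -0.048 without it.

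**Figure D2:**
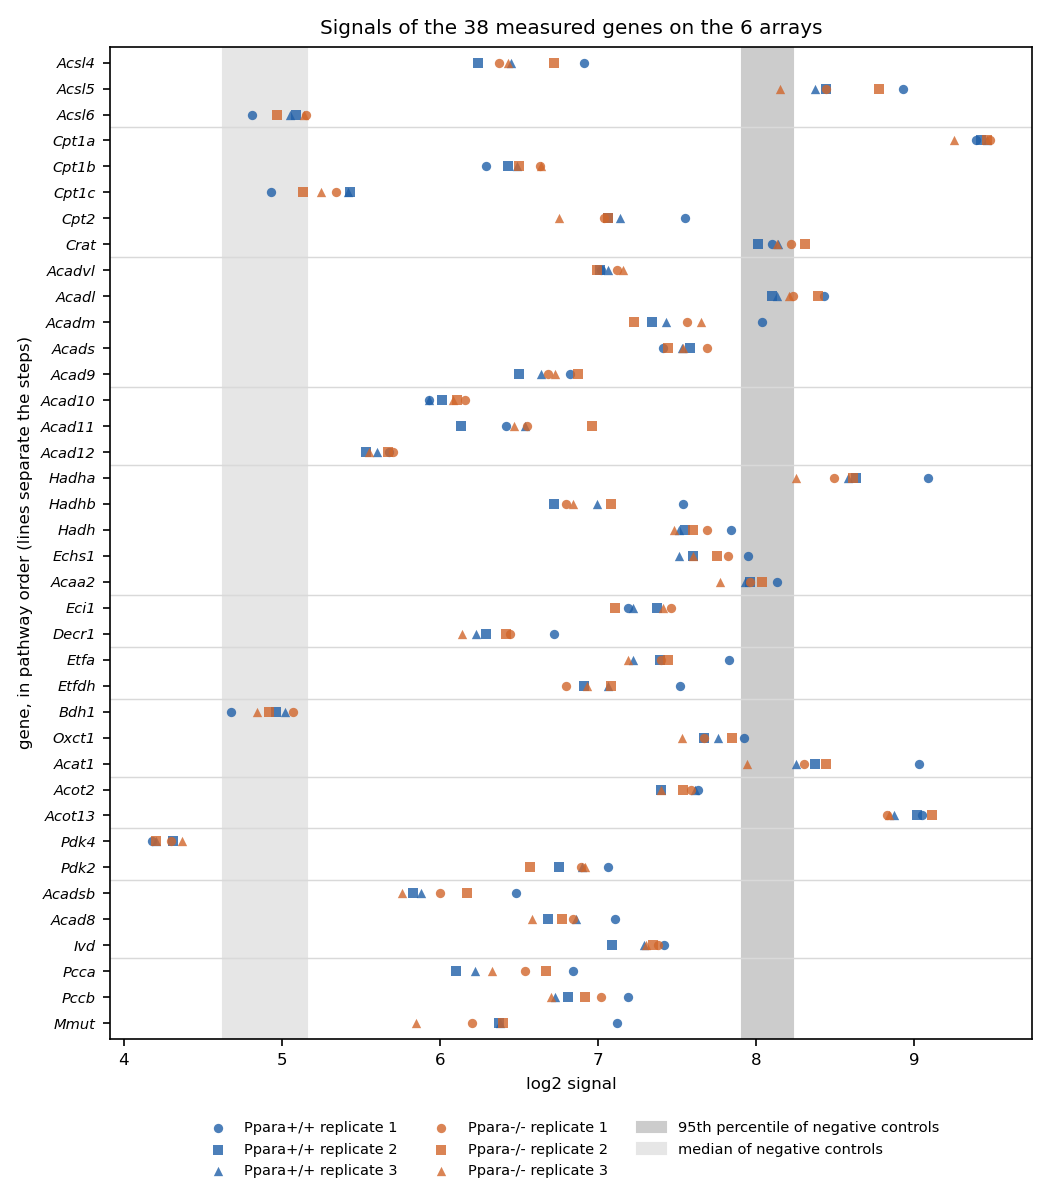
Log2 signal of the 38 genes (rows, in pathway order, lines between steps) on each array, with blue for Ppara+/+, orange for Ppara-/-, a marker shape per replicate and grey bands for the range of the negative-control medians and 95th percentiles over the 6 arrays. Blue and orange overlap in every row but those of Cpt1b and Acad10, and the blue circle of Ppara+/+ replicate 1 is the rightmost point in 23 rows.

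Ketone bodies are burned by Bdh1, which oxidises hydroxybutyrate, Oxct1, which commits acetoacetate to oxidation, and Acat1, which splits acetoacetyl-CoA. Oxct1 read 7.92, 7.67 and 7.76 in Ppara+/+ and 7.67, 7.85 and 7.53 in Ppara-/-, a difference of -0.100 (SE 0.12, limma adjusted p = 0.997) within overlapping groups. Acat1 read 9.03, 8.37 and 8.25 against 8.30, 8.44 and 7.94. Its difference of -0.32 (SE 0.22, limma adjusted p = 0.997) was -0.083 without Ppara+/+ replicate 1, the highest array. Bdh1 stayed at the control median, between 4.68 and 5.07.

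Thioesterases release fatty acids from coenzyme A, and the pyruvate dehydrogenase kinases hold back glucose carbon while fat is burned. Acot13 read 9.05, 9.02 and 8.87 in Ppara+/+ and 8.83, 9.11 and 8.84 in Ppara-/-, and Acot2, a PPARA target in liver, ran from 7.40 to 7.63 and from 7.40 to 7.59. Pdk4, a kinase that PPARA induces in liver and muscle, was at the level of the negative controls on every array, with 4.18, 4.31 and 4.20 against 4.30, 4.20 and 4.37. Its difference was 0.060 (SE 0.10), and at such signals the interval bounds the array signal and not the RNA. Pdk2, a widely expressed kinase, read 7.06, 6.75 and 6.90 against 6.89, 6.57 and 6.92.

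The acyl-CoA dehydrogenases of branched-chain amino acids share the electron transfer flavoprotein with fatty acid oxidation, and the propionyl-CoA pathway takes up the 3-carbon end of odd-chain fatty acids. Acad8, the valine enzyme, read 7.11, 6.68 and 6.86 in Ppara+/+ and 6.84, 6.77 and 6.58 in Ppara-/-, a difference of -0.15 (SE 0.14, limma adjusted p = 0.997). Ivd, the leucine enzyme, ran from 7.09 to 7.42 and from 7.30 to 7.38. Acadsb, the isoleucine enzyme, read 6.48, 5.83 and 5.88 against 6.0, 6.17 and 5.76, with the highest value again on Ppara+/+ replicate 1.

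Mmut, the last enzyme of the propionyl-CoA pathway, had the largest difference of the 38 genes. It read 7.12, 6.37 and 6.38 in Ppara+/+ and 6.20, 6.40 and 5.85 in Ppara-/-. One Ppara+/+ array was high and 1 Ppara-/- array low, with the other 4 between 6.20 and 6.40. The difference was -0.47 (SE 0.22, 95% interval -0.98 to 0.032), the unadjusted limma p 0.063 and the adjusted p 0.918, and without Ppara+/+ replicate 1 the difference was -0.23 (SE 0.16). Pcca, a subunit of propionyl-CoA carboxylase, had a positive difference. It read 6.84, 6.10 and 6.22 against 6.54, 6.67 and 6.33, and its difference of 0.13 (SE 0.19, limma adjusted p = 0.997) was 0.35 without the same array (SE 0.12, limma adjusted p = 0.589). Pccb, the partner subunit, ran from 6.73 to 7.19 and from 6.70 to 7.02.

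Read by signal level, 5 genes were bright, that is above the 95th percentile of the negative controls on all 6 arrays: Acsl5, Cpt1a, Hadha, Acat1 and Acot13. Acadl passed it on 5 arrays, Crat on 4 and the other 31 genes on 0. Among the 5 bright genes every difference was negative, with a median of -0.12. The median went to -0.29 when Ppara-/- replicate 2 was left out, to -0.043 when Ppara+/+ replicate 1 was, and to -0.010 when Ppara-/- replicate 3 was. The covariate of control medians gave -0.022, and the mean of all probe sets, of which Acsl5 has 2, gave -0.053. Acsl5 turned to 0.052 without Ppara+/+ replicate 1, and without Ppara-/- replicate 3 Acsl5 was at 0.030 and Cpt1a at 0.047. Over all genes, 1772 of 3122 bright ones had a negative difference, with a median of -0.030. Of the 5, Ppara+/+ replicate 1 was the highest array in 3 and Ppara-/- replicate 3 the lowest in 4, beside 43.4% and 34.9% of all bright genes. The 30 genes of middle signal had 13 positive and 17 negative differences and a median of -0.028. All genes of that level had 6825 positive and 6150 negative differences and a median of 0.010. The 3 dim genes, with a mean no higher than the highest control median of 5.16, were Acsl6, Bdh1 and Pdk4, each with a positive difference and a median of 0.060, of which Bdh1 turned to -0.047 without Ppara+/+ replicate 1. Over all genes, 14517 were dim, of which 9385 had a positive and 4929 a negative difference, with a median of 0.033.

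**Figure D3:**
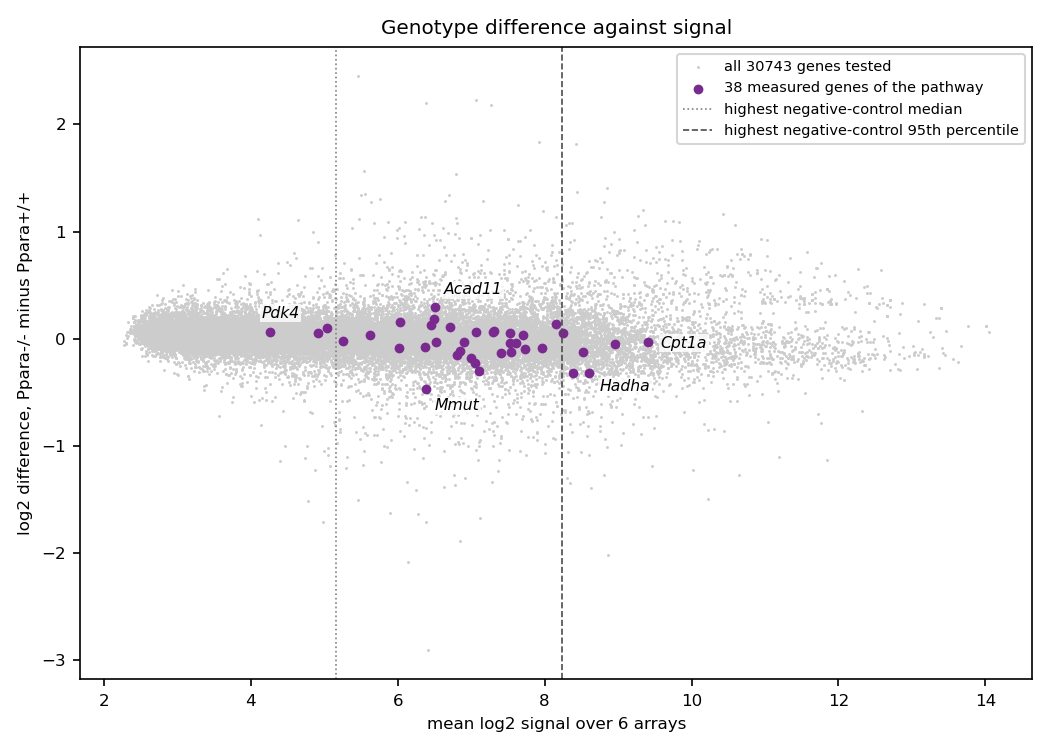
Genotype difference (Ppara-/- minus Ppara+/+, log2) against mean log2 signal over 6 arrays for all 30743 genes (grey) and the 38 genes (purple), with the highest median and the highest 95th percentile of the negative controls as vertical lines. The 38 genes lie between -0.47 and 0.30, inside the cloud of all genes at every signal level.

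Many of the 38 genes shared a high value on a single array. Ppara+/+ replicate 1 was the highest of the 6 arrays in 23 of 38 genes (60.5%), against 18.9% of all genes and 31.3% of genes that were not dim. It exceeded both other Ppara+/+ arrays in 26 genes (68.4%), against 27.7% of all genes and 41.9% of those not dim, and was below both in 8. Relative to the mean of the other Ppara+/+ arrays it was higher by 0.75 in Mmut, 0.72 in Acat1, 0.69 in Hadhb, 0.68 in Pcca, 0.66 in Acadm and 0.63 in Acadsb. It was also higher by 0.57 in Acsl4, 0.53 in Acsl5 and 0.45 in Cpt2. The values ranged down to -0.50 in Cpt1c and -0.31 in Bdh1, with -0.17 in Cpt1b, -0.15 in Acads and -0.015 in Acadvl, so genes of the same step lay on both sides. At the other end, Ppara-/- replicate 3 was the lowest array in 14 genes (36.8%), against 13.9% of all genes, 20.1% of those not dim and 34.9% of bright ones. These are counts over genes of the same arrays, which are not independent.

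Ppara+/+ replicate 1 was also the array with the highest negative-control median, 5.16 against 4.63 to 4.99 on the others, and the lowest median of the named genes, 5.16 against 5.25 to 5.40. The values below leave it out, weight the arrays by quality or add the control median as a covariate. Without it the median difference of the 38 genes was 0.045, with 25 positive and 13 negative, and 11 genes changed sign. With array weights the median was 0.063, again with 25 positive and 13 negative, and 9 genes changed sign. With the covariate it was 0.0044, and 8 genes changed sign. Without Ppara-/- replicate 3 the median was 0.021, and without any other single array it stayed negative. In all these fits limma called 0 of the 38 genes.

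**Figure D4:**
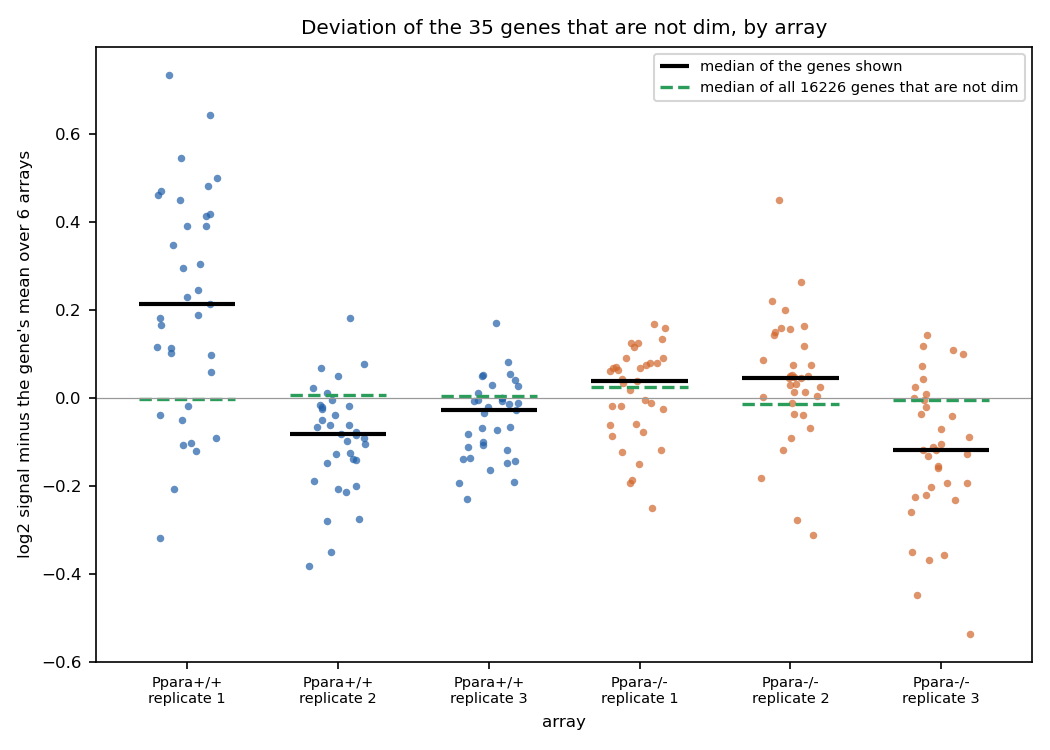
Log2 signal minus the gene's mean over the 6 arrays, by array, for the 35 pathway genes that were not dim (points), with their median (black line) and the median of all 16226 genes that were not dim (dashed green line). The medians of the pathway genes sit at 0.21 on Ppara+/+ replicate 1 and at -0.12 on Ppara-/- replicate 3, while those of all genes lie near 0. The medians of all genes differed by signal level (not drawn). On these 2 arrays all bright genes had 0.135 and -0.097, beside 0.41 and -0.36 for the 5 bright pathway genes. All genes of middle signal had -0.043 and 0.0083, beside 0.20 and -0.0975 for the 30 pathway genes of that level.

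Liver targets of PPARA were read as their own group. The 14 measured were Cpt1a, Cpt1b, Cpt2, Acadvl, Acadl, Acadm, Hadha, Hadhb, Acaa2, Pdk4, Eci1, Decr1, Acot2 and Etfdh. Of these, 5 had a positive and 9 a negative difference, with a median of -0.058. Over all genes 17538 were positive and 12851 negative, with a median of 0.020. With limma 0 of the 14 passed the adjusted threshold, against 0.117% of all genes, and at such a share a count of 0 says little. Without Ppara+/+ replicate 1 the median of the 14 was 0.033.

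Around the 38 genes, 100 of 108 listed partners of the pathway were measured: fatty acid and carnitine carriers, the malonyl-CoA and AMP kinase control of the shuttle, further synthetases and thioesterases, ketone synthesis and transport, the pyruvate dehydrogenase complex, branched-chain amino acid enzymes and transcription factors. With limma 0 of 100 passed the adjusted threshold, against 0.117% of all genes, and 4 had an unadjusted p under 0.05, against 5.74%. The partners had 64 positive and 36 negative differences and a median of 0.035, beside the 17538 positive and 12851 negative over all genes. The genotypes did not overlap in 9 of the 100, near the 8.74% of all genes.

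Acss1, the mitochondrial acetyl-CoA synthetase that lets cells burn acetate, had the largest partner difference. It read 7.54, 6.79 and 7.04 in Ppara+/+ and 6.45, 6.40 and 6.41 in Ppara-/-, with all Ppara-/- values below all Ppara+/+ values. The difference was -0.70 (SE 0.18), the unadjusted limma p 0.0035 and the adjusted p 0.327, so it did not pass over all genes. It was -0.50 without Ppara+/+ replicate 1. Slc16a6, a transporter linked to export of ketone bodies from liver, read 9.21, 9.17 and 9.16 against 9.48, 9.53 and 9.40, a difference of 0.29 (SE 0.095, limma adjusted p = 0.614).

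Prkab2, a regulatory subunit of AMP kinase, read 6.57, 6.28 and 6.60 against 5.99, 5.87 and 6.35, a difference of -0.41 (SE 0.15, limma adjusted p = 0.740). Pparg, the adipocyte relative of PPARA, read 4.24, 4.34 and 4.52 against 4.06, 3.96 and 4.0, all under the control median, with a difference of -0.36 (SE 0.11, limma adjusted p = 0.519). Of the partner lists, the pyruvate dehydrogenase genes shared the array pattern of the pathway most, with Ppara+/+ replicate 1 highest in 8 of 11, and the branched-chain and propionate partners had it highest in 9 of 17. Among the 12 carriers and fatty acid binding genes it was highest in 2, and among the 13 transcription factors in 0. Over all genes tested it was highest in 18.9%, with 5.0% of dim, 28.4% of middle and 43.4% of bright genes. The lists also differed in signal level, and the part of that in these counts was not tested.

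Upstream windows of 250 bases were available for 33 of the 41 listed genes, in 39 windows, and were searched on both strands. The nuclear receptor half-site AGGTCA lay in 7 of the 33 genes: Acadm, Acadvl, Acsl6, Cpt1a, Cpt1c, Echs1 and Pcca. That was 17.9% of the 39 windows, against 14% of all 32851 windows of that length. The pair that PPARA with RXR binds, AGGTCA followed by AGGTCA with 1 base between, was in 0 of the windows of these genes and in 0.0335% of all windows. Only these exact letters were searched, so pairs spelled otherwise were not counted, and at such a share a count of 0 says little. The site of the estrogen-related receptors, TCAAGGTCA, which contains the half-site, lay in that of Acsl6 alone among these genes, and in 0.387% of all windows. The site of NRF1, a factor of mitochondrial genes, searched as GCGCA and GCGC with 1 base between, lay in 5 genes (Acad10, Acad12, Etfb, Etfdh and Pccb), or 12.8% of their windows against 3.74% of all. A match describes the letters only, and elements farther from the start lie outside these windows. Of the measured genes with a half-site, Cpt1a, Acadm, Acadvl and Pcca had differences of -0.027, -0.12, 0.060 and 0.13, each smaller than its SE. Those of Acsl6, Cpt1c and Echs1 were also smaller than their SE. Without Ppara+/+ replicate 1 the differences of Pcca (0.35, SE 0.12), Cpt1c and Echs1 were larger than their SE.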

How the data were processed

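The log2 signals of 6 samples, grouped and numbered by their titles, were used as the authors deposited them. RMA (background correction, quantile normalization, summary of probes) and limma are named, without versions, in the submitters' processing notes. Quantile normalization removes a shift of most genes in 1 direction. The form of the probe set names differs from that of the stated array model, which is therefore uncertain.

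Of 72688 rows, 6732 were controls (5222 negative). A platform table and the RefSeq gene table named 30743 genes, each tested through its brightest probe set with limma 3.58.1 in R 4.3.3 (lmFit, eBayes, two-sided, no covariates, no filter, Benjamini-Hochberg adjustment, moderated SE). The fit was tested on simulated data. Their noise was drawn independently for each gene and array, so a shift shared by many genes of an array was not covered. An exact permutation test of 3 against 3 cannot go below 0.1.

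The genes, lists, levels and alternatives were chosen with earlier results of these data known. All 38 genes were named. Values on each array were given for those not overlapping and for the brightest gene of most steps. For Acadl, Eci1, Ivd and Pccb, the brightest of their steps, only ranges were given. Values on each array were also given for other genes chosen after their values were seen, and for partners with an unadjusted p under 0.05. Alternatives covered the prior, normalization, dim genes, probe sets, array weights, a replicate block, a background covariate, arrays left out and the threshold.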

Additional observations from a re-analysis of the deposited data

How the results depend on the processing

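Under every alternative run, limma called 0 of the 38 genes after adjustment and 0 of the 100 partners, and the smallest adjusted p among the 38 ranged from 0.349 (array weights) to 1. The number of all genes past the threshold was 36 and varied widely: 69 with a trended and robust prior, 22 after quantile normalization again, 13 with arrays centred on the median, 14 with cyclic loess, 4 among genes above the 95th percentile of the negative controls, 277 with array weights, 0 without Ppara+/+ replicate 1 and Ppara-/- replicate 2 together (limma, with 9.59% of genes at an unadjusted p under 0.05), 74 at an adjusted p under 0.10, and 6 to 36 when single arrays were left out (13 without Ppara+/+ replicate 3, and 6, 11 and 15 without Ppara-/- replicates 1, 2 and 3). With the replicate number as a block 12 genes passed, none of them among the 38. Deviations of same-numbered arrays correlated at -0.33, -0.47 and 0.11, so the numbers were not taken to pair samples. The cause of these changes was not tested.

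Leaving out single arrays moved the median difference of the 38 genes between -0.069 and 0.045, that of the shuttle between -0.068 and 0.065, and that of the branched-chain dehydrogenases between -0.20 and 0.12. The shuttle median was 0.055 among genes above the 95th percentile of the controls and -0.075 without Ppara+/+ replicate 1 and Ppara-/- replicate 2. That filter kept 7 of the 38 genes, and it moved the medians of hydration to thiolysis to -0.32, of the ketone enzymes to -0.32 and of middle signal to 0.097. Array weights moved the auxiliary enzymes to 0.12, and leaving out both arrays moved the kinases to 0.080. Acadm changed sign with array weights (0.098), without both arrays (0.22) and over single arrays (-0.26 to 0.095), Cpt1a with cyclic loess (0.022) and over single arrays (-0.068 to 0.047), and Hadhb (-0.36 to 0.052) and Pcca (-0.017 to 0.35) over single arrays. Acsl5 changed sign with the control median as a covariate (0.025) and over single arrays (-0.29 to 0.052), and Bdh1 without both arrays (-0.035) and over single arrays (-0.047 to 0.12), while Acad12 went to 0 without Ppara+/+ replicate 2 (0 to 0.082 over single arrays). The other differences printed as values kept their sign in every alternative. Arrays give no depth, and signals near the negative controls limit what a difference can show.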
